A study of Mus musculus with 20 samples.

Results

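Neurog1, Neurog2, Neurod1, Neurod2, Neurod4, Neurod6, Nhlh1, Nhlh2 and Bhlhe23 encode neurogenic transcription factors of the basic helix-loop-helix (bHLH) class. They were chosen by name, and all 9 had a row among the 37994 genes of the developmental tables and among the 36104 genes of the E18 side tables. The study profiled cells of the mouse habenula, a paired nucleus of the dorsal diencephalon, with Cel-seq2, a plate-based single-cell method that counts unique molecular identifiers (UMIs) in up to 384 wells per plate. The developmental series has 15 plates of Brn3a-tauLacZ mice: 2 each at E11, E13, E15, E18, P4, P7 and in the adult, and 1 at E12. Brn3a is an older name of Pou4f1, a marker of the medial habenula, and every plate of the developmental series shares this reporter allele at the Pou4f1 locus. The labels do not say whether the mice carried it on 1 or both copies, and its part in the Pou4f1 counts and in the choice of Pou4f1-positive wells was not tested. A further 5 plates came from C57BL/6 mice at E18: 2 of the left habenula, 2 of the right and 1 of both sides, the last of which carries E1 in its title and E18 in its other labels. The labels name no treatment, no cell sort, no number of animals and no pooling. Nothing ties plates to separate animals, so the p-values below measure the spread between plates, which may be technical.

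Neurogenic bHLH factors act in a relay. The neurogenins Neurog1 and Neurog2 are switched on in progenitors, where they induce Notch ligands and start neuronal differentiation, and Neurod4, Nhlh1 and the Neurod genes follow as cells leave the cycle. The proteins bind the E-box CANNTG as dimers with E proteins (Tcf3, Tcf4 and Tcf12), and Id proteins hold E proteins away from DNA. In the epithalamus, habenular neurons arise from dorsal progenitors and switch on Pou4f1 as they differentiate.

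Each of the 9 genes is a compact locus in GENCODE M21 (GRCm38). Neurog1 (chr13:56250478-56252163, minus strand) and Bhlhe23 (chr2:180774381-180776900, minus) have 1 exon. The other members have 2 exons: Neurog2 (chr3:127633135-127635631, plus), Neurod1 (chr2:79452521-79456751, minus), Neurod2 (chr11:98325415-98329648, minus), Neurod4 (chr10:130268152-130280240, minus), Neurod6 (chr6:55677822-55681263, minus), Nhlh1 (chr1:172052292-172057573, minus) and Nhlh2 (chr3:102010076-102015492, plus). Bhlhe23 overlaps Gm14343 on the same strand, and Neurod1 overlaps Cerkl on the same strand and Gm26755 on the other. How the authors' counting split reads between such partners is stated in none of the labels, so the Bhlhe23 and Neurod1 values carry that uncertainty.

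The stretches before the start sites of Neurod2, Nhlh1 and Nhlh2 are shown because these 3 members, whose levels take different courses over the stages, have the E-box word CAGATG within 250 bases of the RefSeq start. They are RefSeq sequence on GRCm38.p6, written 5′ to 3′ on the strand of the gene and ending before the GENCODE start: Neurod2 at chr11:98329649-98329895 (minus), Nhlh1 at chr1:172057597-172057846 (minus) and Nhlh2 at chr3:102009895-102010075 (plus). Capitals mark each E-box (CANNTG, which reads as CANNTG on both strands).
Neurod2: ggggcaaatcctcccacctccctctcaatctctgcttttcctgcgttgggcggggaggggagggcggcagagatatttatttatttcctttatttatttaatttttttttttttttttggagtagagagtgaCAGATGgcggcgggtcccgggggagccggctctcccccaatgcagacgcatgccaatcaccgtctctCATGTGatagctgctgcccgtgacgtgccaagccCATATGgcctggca
Nhlh1: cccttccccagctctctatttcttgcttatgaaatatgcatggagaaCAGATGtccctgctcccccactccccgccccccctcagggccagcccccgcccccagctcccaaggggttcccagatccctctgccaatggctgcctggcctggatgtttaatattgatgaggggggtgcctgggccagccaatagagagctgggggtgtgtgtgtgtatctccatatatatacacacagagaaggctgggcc
Nhlh2: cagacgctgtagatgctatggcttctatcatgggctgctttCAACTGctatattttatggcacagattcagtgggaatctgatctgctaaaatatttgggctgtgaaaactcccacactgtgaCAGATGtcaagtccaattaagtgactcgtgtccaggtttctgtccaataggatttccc

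In the 250 bases before the RefSeq starts, Neurod2 had 3 E-boxes, Neurod6 and Nhlh2 had 2 each, and Neurod1, Nhlh1 and Bhlhe23 had 1 each. The windows of Neurog1, Neurog2 and Neurod4 had 0 of these letters. Among all 32851 such windows, 66.2% had a CANNTG, and 14.4% had the word shared by these 3 members, which is a special case of it, on either strand (CAGATG, or its complement read backwards, CATCTG). These are matches of letters and say nothing of binding.

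Of 5756 wells of the developmental plates, 3729 passed the filter of at least 1000 UMIs and 500 genes and at most 20% mitochondrial UMIs, as did 1082 of 1920 wells of the side plates. Summed totals ran from 758697 UMIs (adult plate 1, 56 wells) to 7760372 (P7 plate 1), and median UMIs per well from 5045.5 (adult plate 1) to 28407 (E18 left plate 2, 54 wells). A level is given as CPM, UMIs of the gene per 1000000 UMIs summed over the kept wells of a plate. In such sums, fewer cells with a gene and less of its RNA per cell cannot be told apart. Plates of the same stage differed in their cells. E18 plate 1 had a summed level of 5009 CPM over 10 progenitor markers and 818 CPM over 12 habenula markers, against 395 and 5137 CPM in E18 plate 2. E13 plate 2 had 3854 CPM of ependymal and choroid markers, 2101 of vascular and 1255 of cycling markers, against 15.9, 500 and 355 CPM in E13 plate 1. E15 plate 1 had 879 CPM of progenitor and 2749 of habenula markers, against 435 and 5988 in E15 plate 2. Adult plate 1 had 10461 CPM of oligodendrocyte markers, against 2633 in adult plate 2. Pou4f1 itself had a UMI in 1453 of the 1725 kept wells from E11 to E15. The part of these plate differences in the results below was not tested, except where values without a plate are given.

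The neurogenins had their highest levels in embryonic plates. Neurog2, the main proneural factor of the dorsal forebrain, started at 8.89 and 11.0 CPM (E11) and 14.7 (E12). It reached 51.1 and 179 CPM at E13, with 50.0 and 2.67 CPM at E15 and 70.3 and 0 at E18, where the count of 0 allows up to 2.26 CPM. It then lay between 0 and 2.15 CPM in the 6 plates from P4 to the adult. The E13 plates were above all E11 and E12 plates, whereas the plates of E15 and of E18 differed widely within their stage and overlapped with each other. The high plates of E13, E15 and E18 were those with more progenitor marker RNA (1868 against 1103 CPM at E13, and the E15 and E18 values above). Among Pou4f1-positive wells alone, Neurog2 was again at 50.3 CPM in E18 plate 1 (75 wells) and at 0 in E18 plate 2 (94 wells).

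Neurog1, its close relative, stayed between 0.543 and 13.2 CPM in the 9 embryonic plates. It was at 5.41 and 5.11 at E11, 2.53 at E12, 13.1 and 4.25 at E13, 0.543 and 0.594 at E15, and 13.2 and 1.51 at E18. From P4 onward it was at most 1.36 CPM, and P7 plate 2 and both adult plates had 0 UMIs. A count of 0 allows a level of up to 0.528 CPM in P7 plate 2, 3.95 in adult plate 1 and 0.596 in adult plate 2 (3 counts of the plate's total, counting error only), and the same limits hold for Neurog2 and Neurod4, which also had 0 UMIs in those plates. The Neurog1 values of E15 plates 1 and 2 and of E18 plate 2 rest on 1, 2 and 2 UMIs. They lie below the 3-count limits of 1.63, 0.891 and 2.26 CPM in those plates.

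Neurod4, an early target of neurogenins in other tissues, followed a similar course. Its level was 14.3 and 20.6 CPM at E11, 4.43 at E12, 47.7 and 33.0 at E13, 32.0 and 7.43 at E15, and 73.4 and 6.03 at E18. It lay at or below 0.509 CPM, with at most 3 UMIs, in every plate from P4 onward, below all embryonic plates. As for Neurog2, E15 plate 1 and E18 plate 1 exceeded their partners, and in Pou4f1-positive wells the E18 plates had 103 and 6.48 CPM.

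Nhlh1, a bHLH gene of newborn neurons, had its highest plate at E13. It was at 43.7 and 60.7 CPM at E11, 23.4 at E12, 92.1 and 147 at E13, 98.3 and 16.3 at E15, and 27.5 and 3.01 at E18. From P4 to P7 it held between 8.89 and 13.9 CPM, and the adult plates had 1.32 and 1.39 CPM. The E13 plates did not overlap with E11 or E12, but E15 plate 1 was above E13 plate 1. The adult plates had the lowest values, and E18 plate 2 was below every P4 and P7 plate. Adult plate 1 rests on 1 UMI, with a 3-count limit of 3.95 CPM, and E18 plate 2 on 4 UMIs, so their order cannot be told.

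Bhlhe23, known from retinal bipolar cells and the embryonic diencephalon, was highest at the start. The E11 plates had 113 and 155 CPM, E12 had 57.3, E13 39.8 and 44.1, E15 44.0 and 12.5, and E18 7.58 and 5.27. Later plates ran from 0 to 1.87 CPM. Both E11 plates exceeded every later plate, and both E18 plates exceeded every postnatal plate.

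Nhlh2, the sister gene of Nhlh1 and known for its role in hypothalamic neurons, was present throughout. It was between 512 and 867 CPM in the 7 plates from E11 to E15, at 193 and 530 at E18, between 293 and 406 from P4 to P7, and at 111 and 166 in the adult. The adult plates were below every other plate. E18 plate 1, with its low habenula marker level, stood far under E18 plate 2.

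Neurod1, a differentiation factor of many neurons, was likewise detected at every stage, but its highest plates were postnatal. It was at 144 and 176 CPM at E11, 71.5 at E12, 158 and 161 at E13, 257 and 341 at E15, and 106 and 160 at E18. P4 plates had 490 and 685 CPM, P7 plates 337 and 339, and adult plates 121 and 190. The P4 plates were above all others, and the E18 plates overlapped with those of E11 and E13.

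Neurod2 and Neurod6, which mark differentiated forebrain neurons, came on late. Neurod2 was at 0.386 and 1.02 CPM at E11 (2 and 5 UMIs, plate 1 below its 3-count limit of 0.579 CPM) and 4.64 at E12. The E13 plates had 7.39 and 19.7 CPM and the E15 plates 123 and 71.1, and it was then between 79.7 and 99.1 CPM in the E18 and P4 plates. It was at 48.5 and 54.2 CPM at P7 and at 13.2 and 30.2 in the adult. Its plates did not overlap between E11, E12, E13 and E15, nor between P4, P7 and the adult.

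Neurod6 had 0 UMIs in both E11 plates and E13 plate 1 (allowing up to 0.579, 0.613 and 1.7 CPM), 1.47 CPM at E12 and 1.59 in E13 plate 2. It was at 35.3 and 24.1 CPM at E15, 5.19 and 16.6 at E18, 31.9 and 37.1 at P4, and 16.8 and 15.5 at P7. Adult plate 1 had 0 UMIs (allowing up to 3.95 CPM) and adult plate 2 had 0.795 CPM (4 UMIs). Every plate from E15 to P7 exceeded every plate before E15 and both adult plates.

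**Figure D1:**
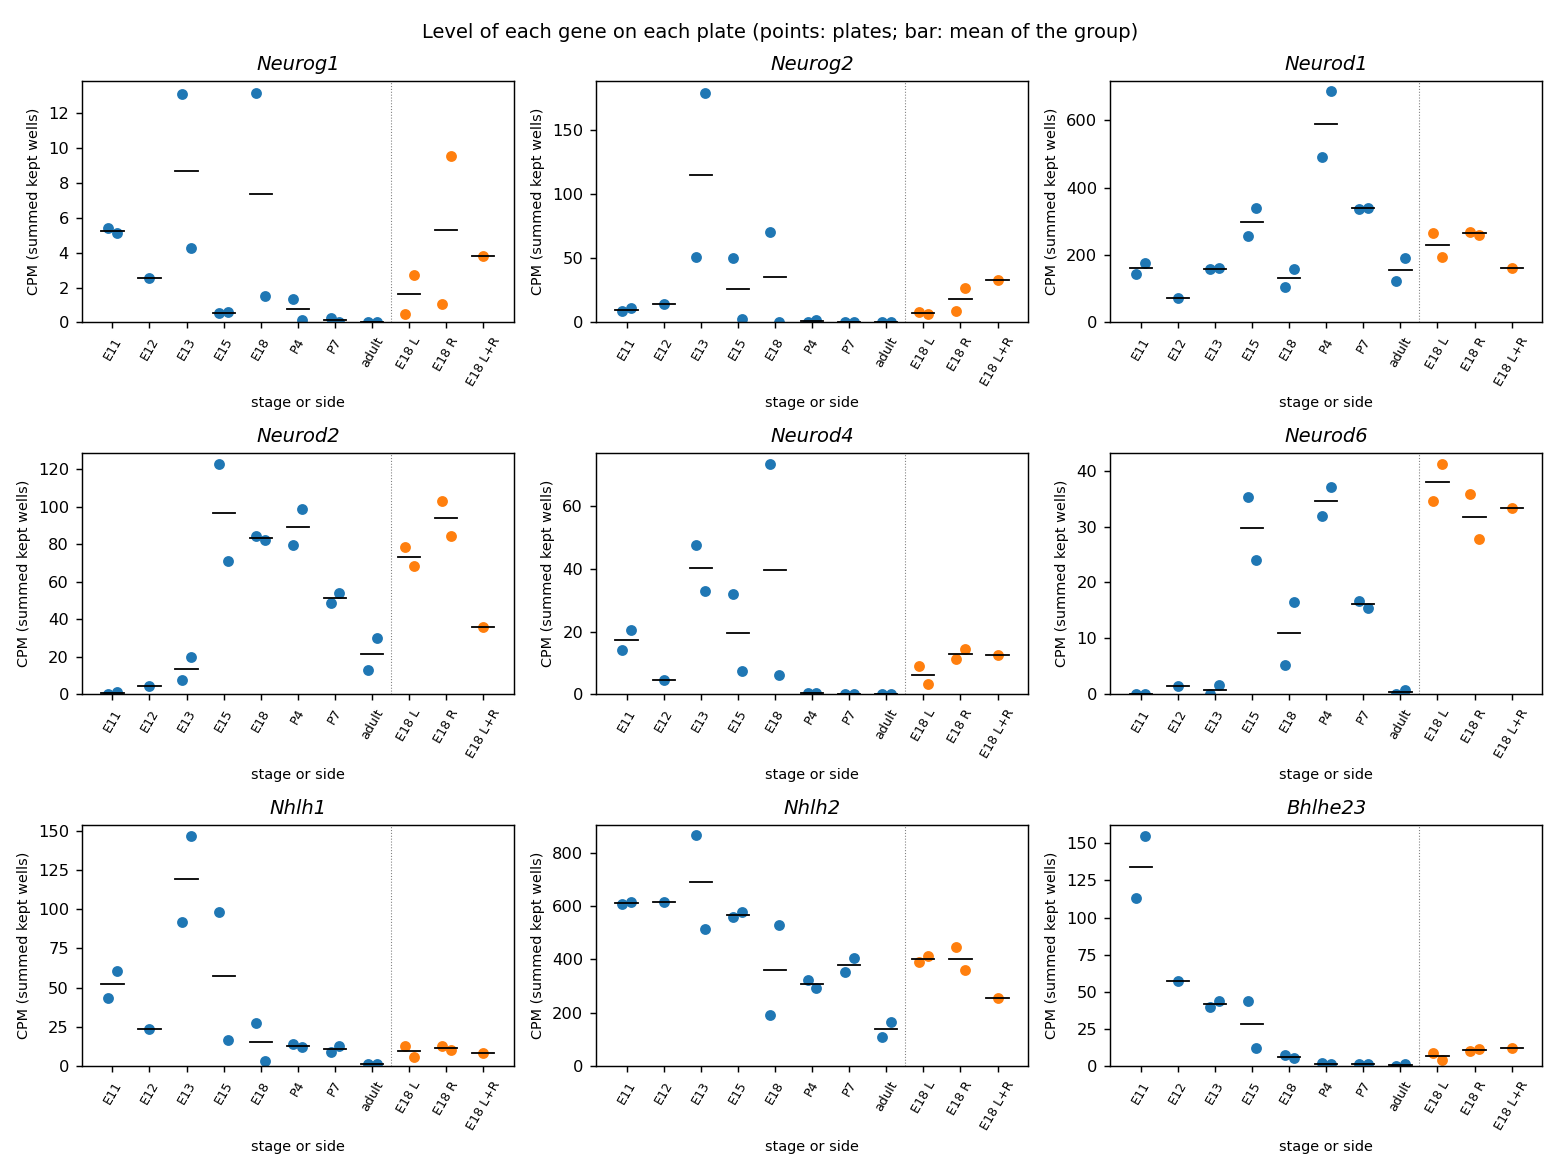
Level of each gene (CPM, linear axis starting at 0, a separate scale for each gene) in every plate by stage and, at the right, in the E18 side plates; each point is a plate and each short bar is the mean of a group. Bhlhe23 is highest in the 2 E11 plates (113 and 155 CPM), Neurod1 in the 2 P4 plates (490 and 685 CPM), and Neurod2 and Neurod6 are higher in both E15 plates than in both E13 plates.

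Steps between neighbouring stages were tested over all genes with edgeR's quasi-likelihood test and Benjamini-Hochberg adjustment, on 14 plates with E12 left out. All 9 members passed the filter on low counts. From E11 to E13, 1 member was called, against 1.45% of all 17453 genes and 0.854% higher: Neurod2 rose by 4.06 ± 0.64 (log2 fold change ± SE, adjusted p = 0.0130). That call ended without E11 plate 1, E11 plate 2 or E13 plate 2, and in a fit of the 4 plates alone, with changes from 3.21 to 4.86 over the 13 alternatives. The E11 plates held 2 and 5 UMIs of Neurod2, near or below the 3-count limit, so few counts set the size of this rise. Bhlhe23 had a change of -1.83 ± 0.44 that missed the threshold (adjusted p = 0.0671), as did Neurog2 with 3.35 ± 1.35 (0.233). Of the cell type markers, 3 of 8 vascular genes were called higher in this step (median change 6.34 against 0.02 over all genes), as was 1 of 12 habenula genes, and 1 of 5 thalamus genes was lower. Cycling and ependymal and choroid genes had medians of 2.02 and 2.62 with 0 called, and the part of these markers in the member values was not tested.

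From E13 to E15, Neurod2 was again the called member, 1 of 9 against 0.0917% of all genes, 0.0516% higher and 0.0401% lower. It rose by 2.95 ± 0.45 (edgeR, adjusted p = 0.0389). The call ended when any of the 4 plates was left out, with the replicate number as a block and in a fit of the 4 plates alone. It also ended in Pou4f1-positive wells alone (edgeR, adjusted p = 0.0524). The change ran from 2.52 to 3.79 over the 13 alternatives. Neurod6 changed by 5.24 ± 0.86 and Neurod1 by 1.04 ± 0.32 without passing (adjusted p = 0.0657 and 0.209). No marker list had a called gene in this step by edgeR, with medians of -4.16 for cycling, -4.05 for vascular and -3.12 for ependymal and choroid genes.

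From E15 to E18, 0 of 9 members were called by edgeR, against 0.195% of all genes (0.16% higher and 0.0344% lower), although 5 had an unadjusted p under 0.05. DESeq2 called 2 members lower, in a fit that called 665 of 17453 genes. Without E18 plate 2 edgeR called 4 members, together with 2100 of 19982 genes. Neurog1 had the largest shift, 3.49 ± 1.27 (edgeR, adjusted p = 0.217), with 0.543 and 0.594 CPM at E15 and 13.2 and 1.51 at E18. The E15 plates held 1 and 2 UMIs of Neurog1 and E18 plate 2 held 2, below the 3-count limit, so few counts set the size of this shift. Bhlhe23 had the lowest p with a change of -2.18 ± 0.54 (0.112), and Neurod1 one of -1.29 ± 0.32 (0.113). Of the markers, 1 of 10 progenitor, 1 of 6 astrocyte and 1 of 5 thalamus genes were called higher.

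In the joint fit of the stage steps, birth lay inside the step with the most changed genes. Fits of the 4 plates of a step alone did not keep this rank. They called 528 genes from E18 to P4 and 541 from P4 to P7. In the joint fit, 2 members rose and 1 fell from E18 to P4, against 19.6% of all genes, 9.2% higher and 10.4% lower. Neurod1 rose by 2.36 ± 0.33 (edgeR, adjusted p = 0.00187), and this call held without any single plate but not in a fit of the 4 plates alone (0.0625). Neurod6 rose by 1.94 ± 0.61 (adjusted p = 0.0490), but by 1.18 without E18 plate 1 (0.192), and its call ended in 8 of 13 alternatives, among them without either P4 plate. Neurod4 fell by 6.27 ± 1.18 on the log2 scale (edgeR, adjusted p = 0.00717), and by 3.68 without E18 plate 1. Its call ended without E18 plate 1, P4 plate 1 or P4 plate 2. The P4 plates held 3 and 2 UMIs of Neurod4, near or below the 3-count limit, so few counts set the size of this fall. The number of called members was 1 without E18 plate 1 or either P4 plate, in fits that called 1670, 880 and 574 genes. It was 6 without E18 plate 2, where 5695 of 19982 genes were called, so the member count moved with the count over all genes. Cell type markers moved in this step too: 3 of 10 progenitor (median -2.53), 2 of 6 ependymal and choroid (-5.52), 2 of 6 astrocyte (-2.14), 1 of 8 vascular and 1 of 5 thalamus genes fell with 0 higher. Of 20 Notch pathway genes 4 fell and 1 rose, and 4 of 12 habenula genes rose with 0 lower. Their part in the member calls was not tested.

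After birth few steps passed. From P4 to P7, edgeR called 0 of 9 members, against 0.00573% of all genes. At an unadjusted p under 0.05 there was 1, Neurod1 with a change of -0.82 ± 0.31, and DESeq2 called 0. A fit of the 4 plates alone, by contrast, called 541 of 14871 genes and 3 of the 6 members tested, all 3 lower. From P7 to the adult, 1 member was called, against 3.58% of all genes (1.76% higher and 1.82% lower): Neurod6 fell by 4.65 ± 0.87 (adjusted p = 0.0231). That call ended without any of the 4 plates (adjusted p between 0.0845 and 0.145), so it rests on each of them. DESeq2 called 4 members lower in this step, in a fit with 1411 of 17453 genes called and 589 of them lower. Oligodendrocyte genes moved the other way in it: 7 of 8 rose and 0 fell (median change 5.30 against -0.02 over all genes), and their summed level was 181 and 151 CPM at P7 and 10461 and 2633 CPM in the adult. The part of that change in cell makeup in the member values was not tested.

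A straight-line trend over the 8 stages used all 15 plates and gives a log2 change per stage step. It called 5 members lower, against 13.4% of 20324 genes lower and 30.5% in either direction. Bhlhe23 fell by 1.11 ± 0.08 per step (edgeR, adjusted p = 2.64e-07), Nhlh1 by 0.63 ± 0.15 (0.00426) and Nhlh2 by 0.24 ± 0.07 (0.00970). These 3 calls held in all 23 alternatives. Neurog1 fell by 0.66 ± 0.23 (0.0390), a call that ended without E13 plate 1 or any single P4, P7 or adult plate. Neurog2 fell by 1.12 ± 0.40 (0.0435), a call that ended without either E13 plate, E15 plate 1, E18 plate 2 or any single P4, P7 or adult plate. Over the alternatives, the slope of Neurog1 ran from -0.86 to -0.57 with adjusted p up to 0.0932, and that of Neurog2 from -1.5 to -0.86 with adjusted p up to 0.124. Neurod4 (-0.86 ± 0.36), Neurod1 (0.20 ± 0.10), Neurod2 (0.57 ± 0.26) and Neurod6 (0.62 ± 0.36) did not pass. Of 27 genes downstream of proneural factors, 2 were higher and 18 lower in the same trend. Their median slope was -0.39 against 0.01 over all genes. That list was chosen with earlier results of these data known, so its counts are a description and no independent support. Markers of cell types moved in the same trend: 8 of 8 oligodendrocyte, 4 of 6 astrocyte and 7 of 12 habenula genes were higher with 0 lower, and 7 of 10 cycling, 3 of 10 progenitor and 10 of 20 Notch pathway genes were lower with 0 higher. Their part in the slopes of the members was not tested.

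Left and right habenula were compared at E18 in C57BL/6. Neurog2 was at 8.45 and 6.49 CPM on the left and at 8.71 and 27.2 on the right, and at 32.8 in the plate of both sides. Its right plates were above its left plates, but by little except in right plate 2. Neurod1 (195 to 269 CPM), Neurod2 (68.2 to 103), Neurod6 (27.7 to 41.1) and Nhlh2 (359 to 446) lay within narrow ranges over the 4 one-sided plates.

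By edgeR, 0 of 9 members and 0% of 15489 genes differed between sides. At an unadjusted p under 0.05 there were 182 genes and 1 member, Neurog2 with a right minus left difference of 1.17 ± 0.51 (adjusted p = 1.00). DESeq2 called 1 gene and 0 members. With the replicate number as a block, edgeR called 6 genes and 0 members, and leaving out each plate in turn gave 18 to 39 genes and 0 members. With 2 plates a side, the error was large for the rarest members: Neurog1 had a difference of 1.97 ± 1.14. Erythroid marker RNA differed between the plates (19048 and 17219 CPM on the left, 3410 and 265 on the right), and its part was not tested. Against the Brn3a-tauLacZ plates of the same stage, Neurod4 at 3.24 to 14.4 CPM lay between E18 plates 2 and 1 in 4 of the 5 side plates. Nhlh2 (256 to 446 CPM) lay between them (530 and 193) in all 5. Neurod6 (27.7 to 41.1 CPM) was above both E18 plates (5.19 and 16.6) in all 5, as was Neurod1 (161 to 269, against 106 and 160). The called Neurod6 rise from E18 to P4 used the developmental plates only, with 31.9 and 37.1 CPM at P4. What set the side plates apart was not tested.

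The share of wells with at least 1 UMI followed the levels. In the 7 plates from E11 to E15, Nhlh2 had a UMI in a median of 88.3% of kept wells (range 78.8 to 94.8%) and Neurod1 in 60.6% (35.4 to 67.6%). Nhlh1 was found in 38.0% (10.3 to 70.1%), Bhlhe23 in 20.3% (4.64 to 48.5%) and Neurod4 in 11.0% (2.06 to 16.0%). Neurog2 was found in 9.97% (1.99 to 46.7%), Neurod2 in 4.58% (0.647 to 45.7%), Neurog1 in 4.35% (0.532 to 9.80%) and Neurod6 in 1.03% (0 to 13.3%). At least 1 of the 9 genes had a UMI in 95.7% ± 2.22 (median ± SD, n = 7 plates) of wells.

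Depth sets part of these shares. After each well was thinned to 2000 UMIs, with shallower wells left out, the medians were 62.0% for Nhlh2, 25.1% for Neurod1, 13.0% for Nhlh1 and 7.75% for Bhlhe23. They were 3.28% for Neurod4, 3.21% for Neurog2, 1.48% for Neurod2, 0.984% for Neurog1 and 0% for Neurod6. Thinned shares also moved with stage: Neurod1 went from 24.3 and 25.1% at E11 to 49.6 and 64.8% at P4, and Bhlhe23 from 15.7 and 25.1% at E11 to 0.719 and 0.317% at P4. Neurog2 reached 21.7% in E13 plate 2 and 10.7% in E18 plate 1.

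The members were also found in wells with markers of other cell types. In 77 wells with at least 1% of their UMIs from vascular markers, Nhlh2 was found in 27.3%, Neurod1 in 19.5%, Nhlh1 in 11.7%, Neurog2 in 6.49% and Bhlhe23 in 3.90%, and Neurog1, Neurod2, Neurod4 and Neurod6 in 0 (up to 3.90% for a count of 0). In 50 such oligodendrocyte wells, Neurod1 was found in 12.0%, Nhlh2 in 10.0%, Neurod2 in 4% and Nhlh1 in 2%, and Neurog1, Neurog2, Neurod4, Neurod6 and Bhlhe23 in 0 (up to 6.00%). In 15 microglial wells, Neurod1 was found in 40.0%, Nhlh2 in 13.3%, Neurog2, Neurod2 and Neurod4 in 6.67% each, and the other members in 0. The median depth of these wells was 5185, 6384 and 7343 UMIs, against 13907, 13830 and 13737 UMIs in the other wells. No doublet caller was run, and whether these wells held 1 cell each was not tested. The 1% rule was chosen after seeing the data. The broader rule of at least 3 marker genes with a UMI took in 316 vascular and 307 oligodendrocyte wells and gave higher shares, such as 68.4 and 56.4% for Nhlh2 and 12.7 and 0.651% for Neurog2. These are wells of the developmental plates. In the side plates the broader rule, applied to erythroid markers, took in 509 wells, with Nhlh2 in 79.0%, Neurod1 in 69.0%, Neurod2 in 43.6%, Neurod6 in 19.4% and Neurog2 in 5.50%. It took in most kept wells of both left plates, whose summed habenula markers were at 5883 and 6023 CPM, but few of the plate of both sides. The rule thus did not set erythroid cells apart in the left plates, and these shares are not shares of erythroid cells.

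**Figure D2:**
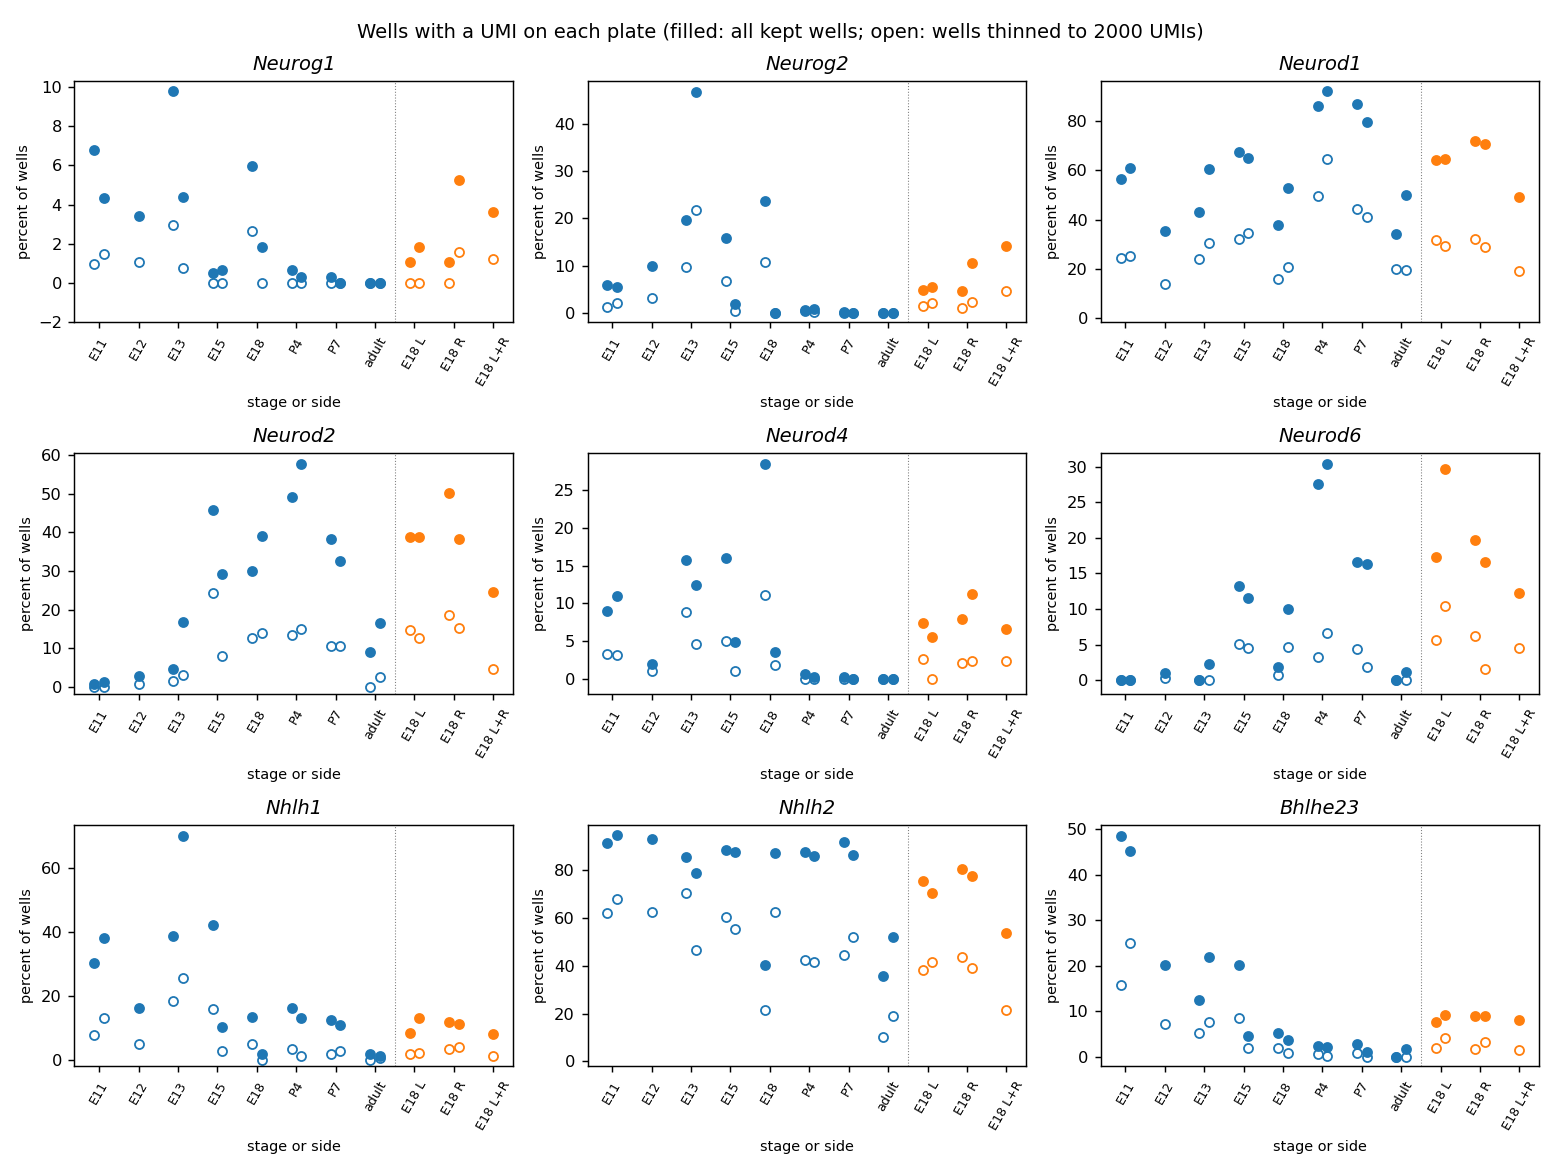
Percent of kept wells with at least 1 UMI of each gene in every plate, by stage and for the E18 side plates; filled points are all kept wells and open points are wells thinned to 2000 UMIs. The share of Bhlhe23 wells is highest at E11 (48.5 and 45.2%), that of Neurod1 at P4 (86.4 and 92.5%), and thinning lowers every gene.

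Co-detection within wells was followed over the 1725 kept wells from E11 to E15. If genes were detected independently in each plate, a number of shared wells follows from their shares, and 32 of the 36 pairs exceeded it, 15 of them in every plate where both genes had a UMI. Beyond pairs with Pou4f1, no pairs of other genes were counted, so whether this share is particular to the members was not tested. Neurog2 and Neurod4 shared 50 wells against 22.1 under independence, above it in 7 of 7 plates. Neurod4 and Nhlh1 shared 111 against 59.2, again in 7 of 7 plates, so that 70.3% of Neurod4 wells had Nhlh1. Neurod1 was found in 84.8% of the Neurod4 wells (134 against 91.8 wells). Since depth differs between wells, pairs were counted again at 1 depth. With wells thinned to 2000 UMIs, 31 of 36 pairs exceeded independence and 4 did so in every plate, and Neurog2 with Neurod4 had 10 wells against 3.53 and Neurod4 with Nhlh1 21 against 7.63.

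Other pairs ranged from below to above independence. Neurod6 was found in 0 of the 70 Neurog1 wells (0.599 under independence) and in 4 of the 158 Neurod4 wells (6.16), below independence in all 4 plates with both genes. After thinning, Neurod6 and Neurod4 shared 1 well against 0.602, so that pair was no longer below independence. Neurog2 was near independence with Nhlh2 (168 wells against 169) and with Bhlhe23 (48 against 47.3), and it shared 122 wells with Pou4f1 against 143, below in 6 of 7 plates. Thinned wells gave 47 against 42.8 with Nhlh2, 10 against 6.91 with Bhlhe23 and 23 against 32.2 with Pou4f1. Neurog2 and Neurod2 shared 43 wells against 28.7, above in 6 of 7 plates, and 5 against 4.12 after thinning. Neurod2 and Neurod6 shared 47 wells against 22.2, or 71.2% of the Neurod6 wells and 21.6% of the Neurod2 wells. Nhlh2 was found in 98.3% of the Bhlhe23 wells (458 against 425). The counts for Neurog1 and Neurod6 rest on few wells and show no more than these numbers.

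**Figure D3:**
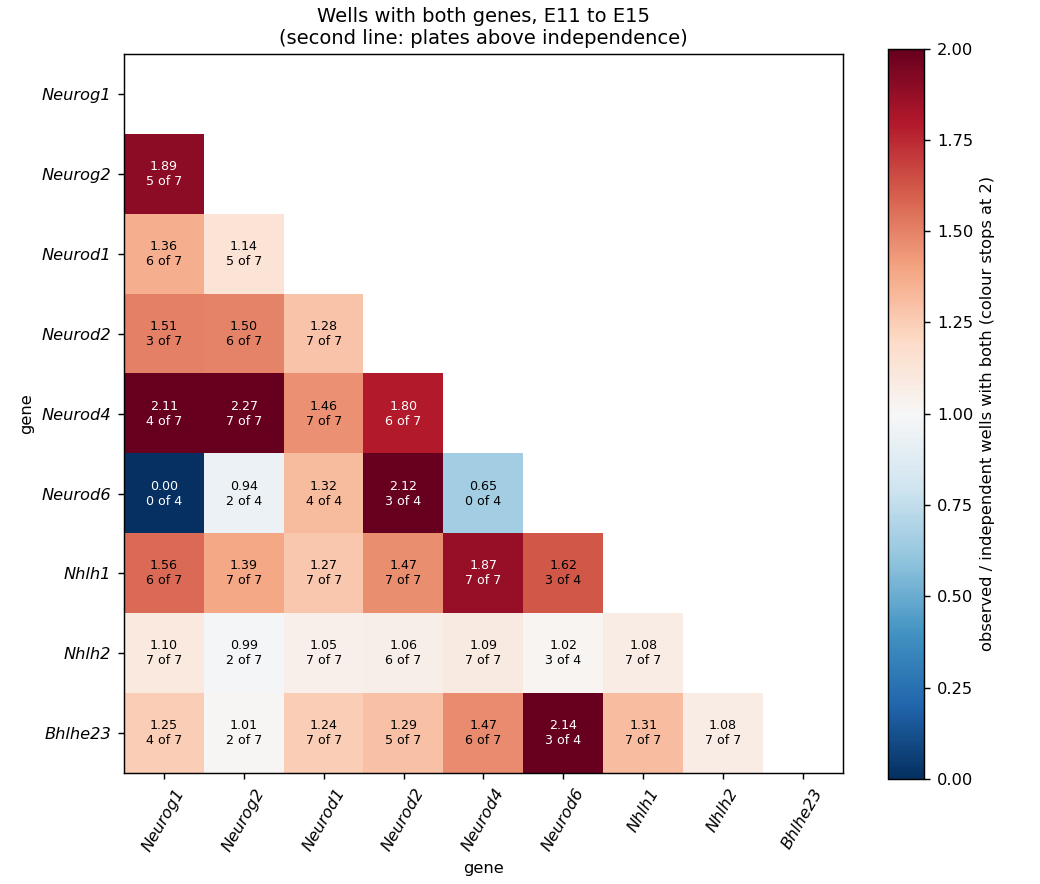
Each square is a pair of genes over 1725 wells from E11 to E15; its colour and first number give wells with both genes divided by the number under independence within plates, and its second line gives plates above independence of plates with both genes. Ratios above 2 are found for Neurog1 with Neurod4, Neurog2 with Neurod4, Neurod2 with Neurod6 and Neurod6 with Bhlhe23.

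For each gene, the counts of its positive wells (at least 1 UMI) and negative wells were summed per plate and compared with the plate as a block, the choosing gene left out. Plates with at least 10 wells of each kind entered. The 2 directions of a pair (Neurod4 by Neurog2 and Neurog2 by Neurod4) use the same wells and are not independent of each other. Positive wells differed in depth from negative ones, in either direction: medians in E12 were 9193 against 14626.5 UMIs for Neurog2, and in E13 plate 1 they were 12918 against 2323 for Nhlh2.

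Wells with Neurog2 had more RNA of Nhlh1, Neurod4 and Neurod1. Nhlh1 was at 126, 190, 129, 209, 223 and 115 CPM in Neurog2-positive wells of the 6 plates E11 1, E11 2, E12, E13 1, E13 2 and E15 1, against 38.9, 54.9, 16.0, 55.3, 80.3 and 94.4 CPM in negative wells. Neurod4 was at 21.0, 71.4, 38.8, 154, 51.5 and 57.4 CPM against 13.9, 18.4, 2.03, 14.2, 16.9 and 26.1. Both genes were higher with Neurog2 in 6 of 6 plates. Of 5 members that passed the filter on low counts, 3 were called higher, against 1.04% of 9951 genes higher and 1.92% called in all. Nhlh1 was higher by 1.67 ± 0.25 (log2, edgeR, adjusted p = 0.00625), Neurod4 by 2.10 ± 0.39 (0.0183) and Neurod1 by 0.90 ± 0.16 (0.0142). The Neurod4 call ended without E11 plate 2 (0.0689), E12 (0.0535) or E13 plate 1 (0.0768). The Neurod1 call ended without the same 3 plates and when wells were called after thinning (adjusted p = 0.24), and 1 member was called without each of these plates.

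Neurog1-positive wells, 10 to 21 in each plate compared, also had more RNA of Neurod4. They were deeper than negative wells in every such plate, with medians of 16203 against 10111.5 UMIs in E13 plate 1. Wells called after thinning were too few to compare. From E11 to E15, 15 wells had both genes against 7.12 under independence, above it in 4 plates and below it in 3. Neurod4 was at 67.1, 105, 57 and 60.2 CPM in positive wells of the E11 plates, E12 and E13 plate 1, against 10.0, 16.3, 2.41 and 45.3 CPM. It was the 1 called member of 6 tested, against 0.123% of 9745 genes higher and 0.318% called in all, with 2.39 ± 0.46 (edgeR, adjusted p = 0.0371). That call ended without E11 plate 1 (0.113), E11 plate 2 (0.308) or E12 (0.0703), and without E13 plate 1 the number of called members was 3. Over all genes, 31 were called with all plates and 15 to 36 with a plate left out.

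Neurod4-positive wells had more RNA of 5 other members. Nhlh1 was at 231 and 263 CPM in the positive wells of the E11 plates, 242 and 359 at E13, and 146 and 96.6 at E15, against 29.3 and 40.6, 57.9 and 123, and 89.4 and 11.1 CPM in negative wells. It was higher in 6 of 6 plates, by 2.17 ± 0.24 (edgeR, adjusted p = 7.56e-05). Of 6 members tested, 5 were called higher, against 2.92% of 9696 genes higher and 6.46% called in all. The others were Neurog2 (2.27 ± 0.33, 0.000477), Bhlhe23 (1.42 ± 0.27, 0.00348), Neurod1 (1.55 ± 0.33, 0.00875) and Nhlh2 (0.52 ± 0.12, 0.0178). The Neurod1 call ended without E11 plate 1 (0.0506), as did that of Nhlh2, which also ended without E11 plate 2 or E15 plate 1 (adjusted p up to 0.263), and 3 members were called without E11 plate 1.

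Nhlh1-positive wells had 5 of 6 tested members called higher, against 1.53% of 10403 genes higher and 2.39% called in all. Neurod4 was higher by 2.56 ± 0.36 (edgeR, adjusted p = 0.00106), Neurod2 by 1.82 ± 0.27 (0.00119), Neurod1 by 1.34 ± 0.17 (0.000324), Neurog2 by 1.33 ± 0.27 (0.0128) and Bhlhe23 by 1.10 ± 0.21 (0.00720). Neurod2 was at 172 and 189 CPM in positive wells of the E15 plates, against 77.4 and 55.2 CPM, and higher with Nhlh1 in 7 of 7 plates. Neurod1 and Neurod4 were also higher in 7 of 7, whereas Bhlhe23 was higher in 6 and lower in 1, and Neurog2 higher in 5 and lower in 2. The Neurog2 call ended without E12, E13 plate 1 or E13 plate 2, and its value ran from 1.16 to 2.35 over the alternatives.

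Neurod1-positive wells had 4 of 6 members called higher, against 0.642% of 11218 genes higher and 2.22% called in all. Neurod4 was at 22.1, 32.8, 10.9, 86.9, 49.4, 33.9 and 7.76 CPM in positive wells of the 7 plates from E11 to E15, against 1.52, 0, 0, 6.96, 2.99, 26.3 and 6.54 CPM. The difference was 3.05 ± 0.52 (edgeR, adjusted p = 0.00617), small in both E15 plates. Nhlh1 was higher by 1.57 ± 0.15 (0.000164) and Bhlhe23 by 1.5 ± 0.17 (0.000404). Neurod2 was higher by 1.5 ± 0.37 (0.0473), a call that ended in 8 of 12 alternatives, among them without either E11 plate, E12 or either E13 plate, with values from 1.34 to 2.11.

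Bhlhe23-positive wells had Neurod1 higher by 0.97 ± 0.14 (edgeR, adjusted p = 0.000850) and Nhlh1 by 0.86 ± 0.18 (0.0132), 2 of 6 members against 0.586% of 10929 genes higher and 2.15% called in all. The Nhlh1 call ended without E11 plate 1 or E13 plate 1 and after thinning, leaving 1 member, and its value ran from 0.74 to 1.00. Outside the bHLH genes, the lowest p among genes called higher were those of the AP-2 factors Tfap2b (2.08 ± 0.13), Tfap2d (3.02 ± 0.31) and Tfap2a (1.62 ± 0.18), of Kctd15 (0.97 ± 0.11), which encodes an AP-2 inhibitor, and of Gm14343 (4.46 ± 0.30), the gene that overlaps Bhlhe23 on its strand.

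Nhlh2 was in most wells, so its negative wells are the unusual kind. Of 5 members tested, 4 were called higher in positive wells, against 9.82% of 10081 genes higher and 18% called in all: Bhlhe23 by 2.37 ± 0.53 (edgeR, adjusted p = 0.00509), Neurod4 by 2.04 ± 0.60 (0.0253), Nhlh1 by 1.43 ± 0.36 (0.0114) and Neurod1 by 1.21 ± 0.34 (0.0190). Bhlhe23 was at 119, 159, 56.9, 41.9, 53.0, 45.6 and 13.4 CPM in positive wells, against 18.0, 0, 68.2, 0, 2.99, 18.0 and 0 CPM, so that E12 went the other way. With wells called after thinning, 1 member was called and the Bhlhe23 difference was 0.47 (adjusted p = 0.13). The Neurod4 call ended without either E13 plate and that of Neurod1 without E11 plate 1 or E13 plate 1, with values from 1.25 to 2.61 and from 0.41 to 1.66 over the alternatives, and 2 members were called without E13 plate 1. Negative wells were shallower in every plate, and the part of depth in the unthinned differences was not tested beyond this.

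Neurod2-positive wells could be compared in 3 plates (E13 plate 2 and both E15 plates). Of 7 members tested, edgeR called 0, against 0.199% of 10559 genes (0.0284% higher and 0.17% lower), while 6 had an unadjusted p under 0.05. DESeq2 called 1, and edgeR called 3 without E13 plate 2. The count over all genes moved too: it was 21 with all plates and 1 to 212 with a plate left out. It was 0 to 60 over the other settings that kept the filter, DESeq2 among them. Neurod6 had the largest difference, 2.39 ± 0.49 (edgeR, adjusted p = 0.0967). Neurod6-positive wells reached 10 in 2 plates and were not compared.

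**Figure D4:**
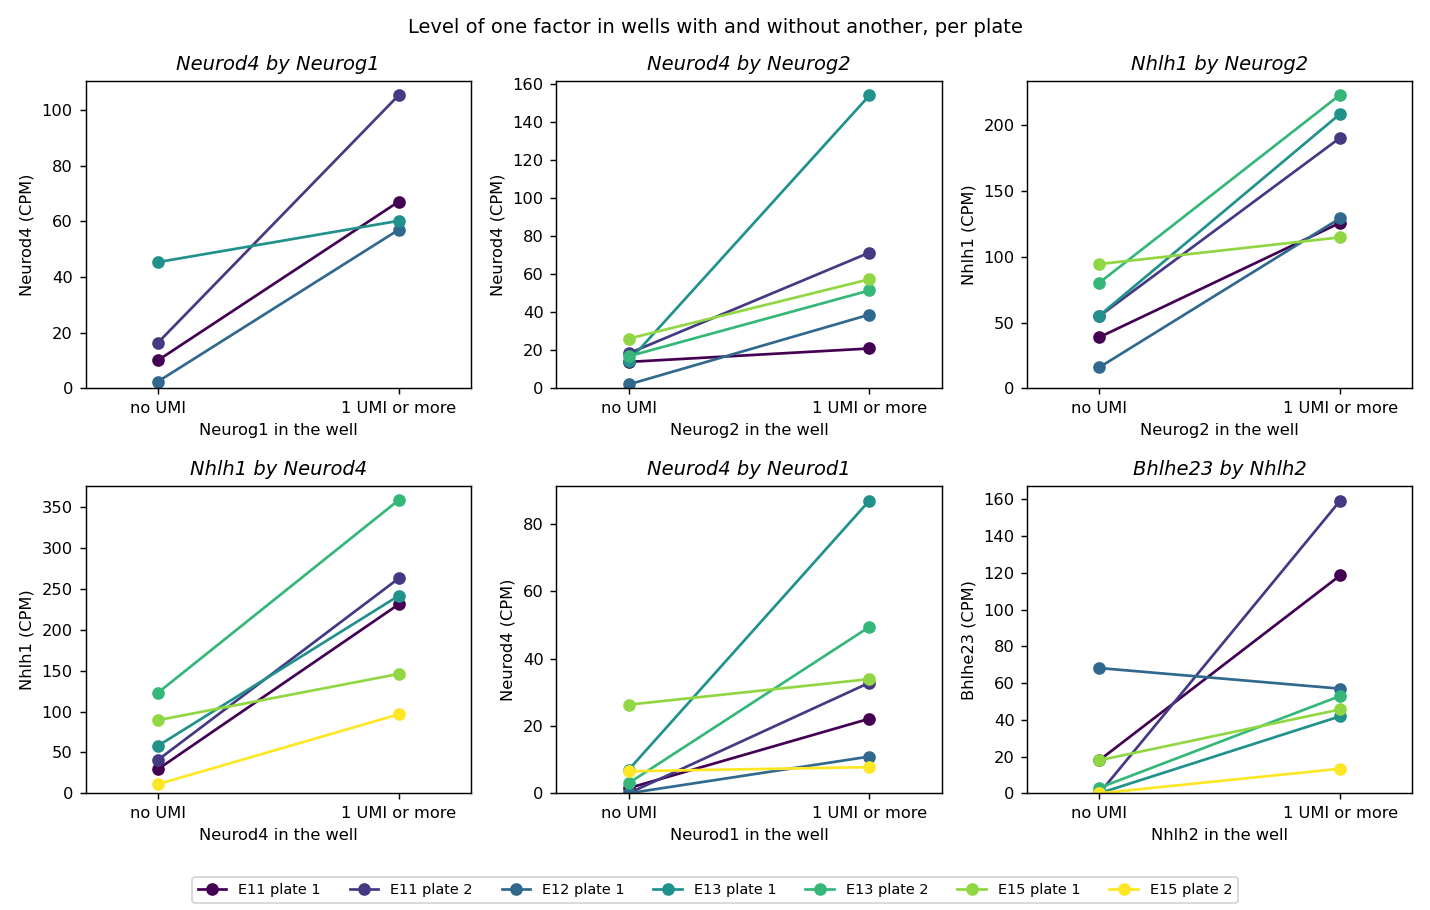
Level of a second gene (CPM, linear axis from 0) in wells without and with a UMI of the first gene; each line is a plate from E11 to E15. Neurod4 and Nhlh1 rise from wells without to wells with Neurog2 in all 6 plates, and Bhlhe23 rises with Nhlh2 in 6 of 7 plates, E12 being the exception.

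Genes downstream of proneural factors, a list of 27, were higher where called in the comparisons of positive with negative wells, except for 2 genes with Nhlh2. The list held 10 higher and 0 lower of 26 tested in Neurog2-positive wells (median difference 0.62 against -0.02 over all genes), among them the zinc finger gene St18 (2.26), the antiproliferative gene Btg2 (2.06), the cortical T-box gene Tbr1 (2.64) and Insm1 (1.15). It held 19 higher and 0 lower of 26 in Neurod4-positive wells (median 0.76 against -0.01), led by St18 (2.77), Insm1 (1.55) and Ebf2 (1.94), and 17 and 0 of 26 in Nhlh1-positive wells (median 0.58 against -0.01). Counts were 11 and 0 of 26 for Neurod1, 4 and 0 of 26 for Bhlhe23, 3 and 0 of 25 for Neurog1 (St18, Ebf2 and the splicing factor Srrm4) and 1 and 0 of 27 for Neurod2 (Ebf3, 1.35). For Nhlh2 they were 11 higher and 2 lower of 26, the lower being Btg2 (-1.31) and the Notch modifier Mfng (-1.52). Over all genes, 1.04% were higher with Neurog2, 2.92% with Neurod4, 1.53% with Nhlh1 and 0.642% with Neurod1. The shares were 0.586% for Bhlhe23, 0.123% for Neurog1 and 0.0284% for Neurod2. With Nhlh2, 9.82% of all genes were higher and 8.17% lower. Members of this list were chosen with knowledge of neurogenin targets in other tissues and of earlier results of these data. Dll1, Dll3, Hes6 and Mfng stand in the Notch list too, and Elavl3 and Elavl4 in the list of neuron genes.

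Notch pathway genes were called in 6 of the 8 comparisons of positive with negative wells, with 0 of 15 called for Neurog1 and 0 of 16 for Neurod2. In Neurog2-positive wells 3 of 17 were higher and 0 lower: the ligand gene Dll3 (2.01), the effector Hes5 (2.39) and Mfng (2.19). In Neurod4-positive wells 4 of 14 were higher and 0 lower: Mfng (2.13), Dll3 (1.89), the ligand-activating ligase Mib1 (1.05) and Hes6 (0.68). Nhlh1-positive wells had 3 higher and 2 lower of 16 (Hes1, -1.43, and the receptor gene Notch3, -1.30), and Neurod1-positive wells 1 higher (Dll3, 1.28) and 4 lower of 17 (Hes1, Notch1, Notch2 and Notch3, -1.82 to -1.35). Bhlhe23-positive wells had 0 higher and 4 lower of 17, and Nhlh2-positive wells 0 higher and 6 lower of 17, led by Notch2 (-2.86) and Notch1 (-3.08). All genes lower in these comparisons made up 0.865% for Nhlh1, 1.58% for Neurod1, 1.56% for Bhlhe23 and 8.17% for Nhlh2. All genes higher made up 1.04% for Neurog2, 2.92% for Neurod4, 1.53% for Nhlh1 and 0.642% for Neurod1. The differences between these comparisons were not tested.

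The dimer partners and their inhibitors were a list of 7. Tcf12 (0.62) and Tcf4 (0.75) were higher in Neurog2-positive wells, and Tcf12 (0.93) and Tcf4 (0.77) were higher and Id4 (-1.51) lower in Neurod4-positive wells. All of Id1, Id2, Id3 and Id4 were lower in Neurod1-positive wells (-1.90 to -0.75), where 0 of the 3 E protein genes were called. In Nhlh2-positive wells the 4 Id genes (-3.29 to -1.90) and Tcf4 (-0.72) were lower. Nhlh1-positive wells had Tcf12 (0.39) and Tcf4 (0.44) higher and Id3 (-1.21) lower, Bhlhe23-positive wells had Id1 (-1.77) and Id3 (-1.87) lower, and 0 of 7 were called for Neurog1 or Neurod2. Over all genes, 1.04% were higher with Neurog2, 2.92% with Neurod4 and 1.53% with Nhlh1, and 3.54% were lower with Neurod4, 0.865% with Nhlh1, 1.58% with Neurod1, 1.56% with Bhlhe23 and 8.17% with Nhlh2. Olig3, a bHLH gene of dorsal progenitors, was higher with Neurog2 (2.72) and was not called in the other 3 comparisons that tested it (Neurod1, -1.54; Neurod2, 1.21; Nhlh2, -1.27). Bhlhe22 was higher with Neurod4 (2.21), Nhlh1 (1.63) and Neurod1 (1.62) and was not called in the other 5 comparisons (-0.25 to 1.40).

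Progenitor, cycling and habenula markers moved beside these results. Summed progenitor markers had a median of 1767 CPM over plates in Neurog2-positive wells against 853 in negative wells (higher in 5 of 6 plates), and cycling markers 781 against 176 (4 of 6). Yet 1 of 10 progenitor genes (Hes5) and 1 of 10 cycling genes (Ube2c, 2.13) passed, against 1.04% of all genes higher. Of 9 tested habenula markers, 5 were lower in Neurog2-positive wells and 0 higher: the tachykinin gene Tac1 (-2.13), Pou4f1 (-1.11), Gng8 (-1.05), Nwd2 (-1.32) and Irx2 (-0.96), against 0.884% of all genes lower. Neurod4-positive wells had 0 of 9 cycling genes called. The eye and forebrain progenitor gene Pax6 was higher in them (1.7), against 2.92% of all genes higher. Summed progenitor markers had a median of 1102 CPM in Neurod4-positive wells against 882 in negative wells, higher in 4 of 6 plates.

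Wells with Nhlh1, Neurod1, Bhlhe23 or Nhlh2 had lower levels of cycling and progenitor genes. Cycling genes were lower in 5 of 10 for Nhlh1, 7 of 10 for Neurod1, 6 of 9 for Bhlhe23 and 10 of 10 for Nhlh2, with 0 higher in each. Progenitor genes were lower in 3 of 9, 5 of 10, 4 of 9 and 10 of 10. Over all genes, 0.865% were lower with Nhlh1, 1.58% with Neurod1, 1.56% with Bhlhe23 and 8.17% with Nhlh2. Neurod2-positive wells, compared in 3 plates, had 0 of 8 cycling and 0 of 8 progenitor genes called, and Neurog1-positive wells 0 of 9 of each. Habenula markers had 0 higher for each member but Nhlh2, with 5 of 9 lower for Neurog2, 3 of 9 for Bhlhe23, 2 of 9 for Neurod4, 1 of 9 each for Neurog1, Neurod2 and Nhlh1, and 0 of 9 for Neurod1. The shares of all genes lower were 0.884% with Neurog2, 3.54% with Neurod4, 0.195% with Neurog1 and 0.17% with Neurod2. In Nhlh2-positive wells all 10 neuron genes were higher, among them Snap25 (1.66) and Tubb3 (1.33), as were 7 of 9 habenula markers, led by Pou4f1 (1.74), against 9.82% of all genes. Summed progenitor markers were at a median of 790 CPM with Nhlh2 and 3377 CPM without. The part of cell type in the member calls above was not tested.

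**Figure D5:**
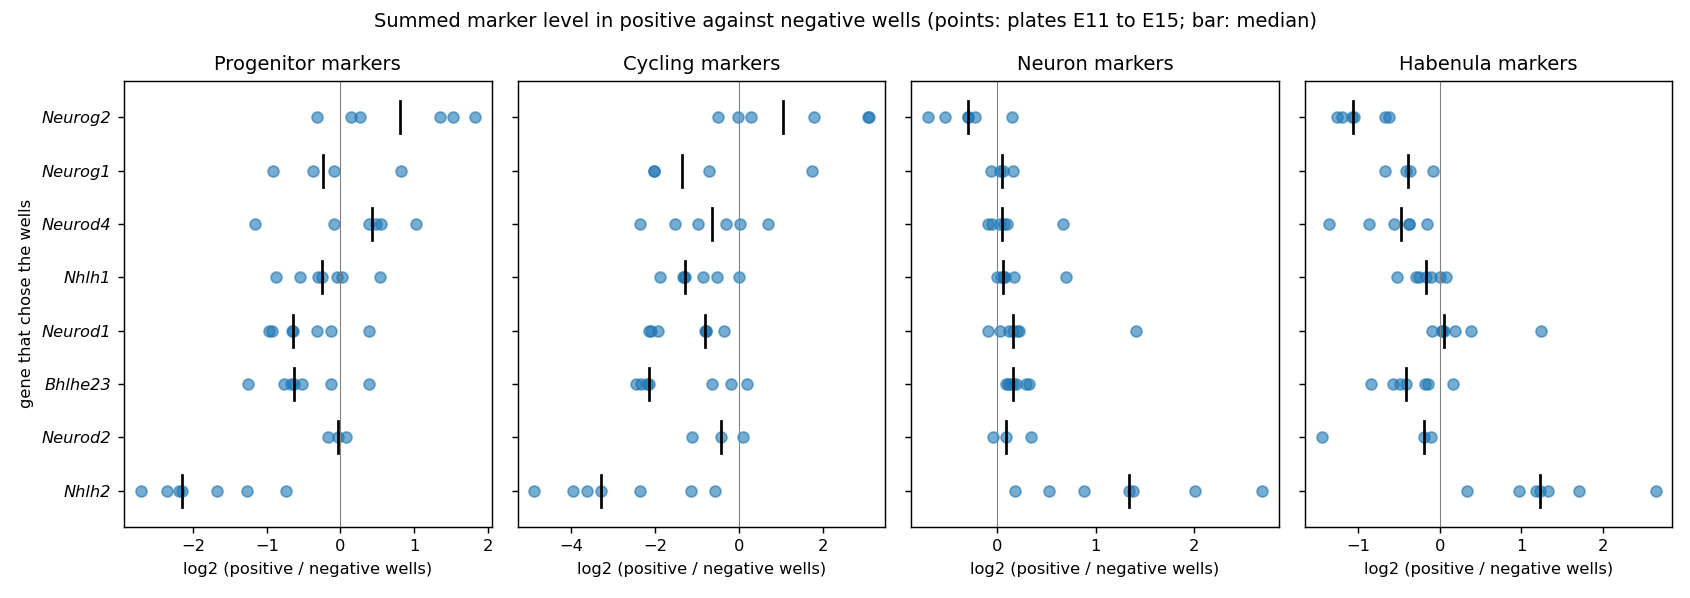
Summed level of marker genes in positive against negative wells (log2 ratio, 0 meaning equal), for the gene that chose the wells; points are plates from E11 to E15 with at least 10 wells of each kind and bars are medians. Wells with Nhlh2 lie below 0 for progenitor and cycling markers in 7 of 7 plates and above 0 for neuron and habenula markers, and wells with Neurog2 lie below 0 for habenula markers in 6 of 6.

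Wells with Neurog2 but no Neurod1 were compared with wells with Neurod1 but no Neurog2 in 3 plates (E12 and both E13 plates, 11 to 20 against 39 to 89 wells). By edgeR, 0 of 4 tested members differed, against 0.337% of 8012 genes (0.225% higher and 0.112% lower), with 1 member at an unadjusted p under 0.05 (Nhlh2, -0.59 ± 0.21). DESeq2 also called 0. The genes higher in the Neurog2 wells included the progenitor factor Sox2 (2.16 ± 0.32, adjusted p = 0.0172), which lies inside Sox2ot, Ptn (2.09 ± 0.26) and Zfp36l1 (2.43 ± 0.33). Tac1 (-2.43 ± 0.24, adjusted p = 0.00152), Nwd2 (-1.86 ± 0.27) and Plk2 (-2.35 ± 0.38) were lower. Of the lists, 3 of 9 progenitor genes were higher (Sox2, the glutamate transporter gene Slc1a3, 3.54, and Vim, 1.01), and 3 of 8 habenula markers were lower (Tac1, Nwd2 and Pou4f1, -1.36). Of 10 cycling genes, 2 were higher (Ccnb1, 1.87, and Top2a, 1.85), and of 10 neuron genes 1 was lower (Stmn2, -1.06). The Neurog2 wells were shallower, with medians of 9004, 7454 and 12970.5 UMIs against 18275, 12137 and 15744.

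Across the 15 developmental plates, genes among the 3 whose log2(CPM + 1) followed each member most closely (Pearson r, genes with a mean of at least 5 CPM) were as follows, with no test, since plates share stage and depth. Neurog2 was followed by the dorsal diencephalic homeobox gene Lhx5 (0.963), Eef1d (0.952) and Olig3 (0.948), and Neurod6 by Foxo6 (0.942), Zic1 (0.934) and Celf2 (0.926). Neurod2 was followed by Pcca (0.951), AC162302.2 (0.940) and Nlrx1 (0.937), and Neurod1 less closely by Vav3 (0.862) and Zfp715 (0.859). Bhlhe23 was followed by Dicer1 (0.980), Pigm (0.978) and Zfp664 (0.977), and Nhlh2 by Nacad (0.961) and Atpif1 (0.958). Nhlh1 was followed by Armcx2 (0.959), Ppp1cc (0.95) and Ccz1 (0.948), Neurod4 by Gm11944 (0.976), Rpl7l1 (0.974) and Rpl22 (0.971), and Neurog1 by Cklf (0.902), Sav1 (0.902) and 1810009A15Rik (0.897).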

How the data were processed

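The authors deposited UMI counts per gene and well, corrected for barcode collisions and therefore expected counts that need not be whole; reads had been trimmed with Trim Galore and aligned with STAR 2.5.3a to mm10, per the submitters' processing notes. Which annotation and strand the counting used is not stated in those notes. Members and lists were chosen with earlier results of these data known. Wells were kept at 1000 or more UMIs, 500 or more genes and at most 20% mitochondrial UMIs, and the 92 ERCC spike-in rows were left out. No doublet caller was run, and wells are named by number, so barcodes shared between plates were not counted. Counts were summed per plate, rounded to whole numbers and fitted with edgeR 4.0.16 (glmQLFit and glmQLFTest, R 4.3.3, TMM, filterByExpr), with Benjamini-Hochberg adjustment over all genes tested and a threshold of 0.05. Stage steps used 1 mean per stage over 14 plates, and positive and negative wells were compared with the plate as a block in plates with at least 10 wells of each kind. Alternatives were DESeq2 1.42.0, its size factors, no filter, other well sets, thinning, the replicate number as a block and leaving out each plate. Fits were tested on simulated counts with the same gene shares in every plate apart from planted changes. That test says nothing of plates that differ in their cells. Beside the members, the text names genes among the 3 most like each, those with the lowest p in a comparison, and list genes with the lowest p; a few genes that this rule names are not reported here. Plates of 758697 to 7760372 UMIs limit low levels to about the 3-count limit given for each plate, and intervals and limits cover counting error only. Same-numbered plates did not deviate together throughout (correlations between stages from -0.334 to 0.221, 21 pairs; 0.227 between the left and right plates, 1 pair).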

Additional observations from a re-analysis of the deposited data

How the results depend on the processing

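When each plate was left out in turn, the number of called members ran from 0 to 1 for E11 to E13, 0 to 0 for E13 to E15, 0 to 4 for E15 to E18, 1 to 6 for E18 to P4, 0 to 0 for P4 to P7 and for P7 to adult, 3 to 6 for the trend and 0 to 0 for left against right. By choosing gene it ran from 1 to 3 for Bhlhe23, 3 to 3 for Neurod1, 0 to 3 for Neurod2, 3 to 5 for Neurod4, 0 to 3 for Neurog1, 1 to 3 for Neurog2, 4 to 5 for Nhlh1 and 2 to 4 for Nhlh2, and was 0 for Neurog2-only wells. Where this left a stage with 1 plate, that plate was assumed to vary like the others. DESeq2 called 2 members for each of E11 to E13, E13 to E15 and E15 to E18, 4 for P7 to adult, 8 for the trend and 1 for Neurod2. Over all 17453 genes it called 932, 445 and 665 in those 3 steps and 1411 for P7 to adult. For the trend, settings that kept the filter and all plates, DESeq2 among them, called 5655 to 7707 of 20324 genes, against 6208. For Neurod2 they called 0 to 60 genes, against 21. With no filter on low counts the numbers of members follow, with all called genes, of at most 37994, in brackets. They were 3 for E11 to E13 (1715), 5 for E13 to E15 (1249) and E15 to E18 (1461) and 6 for E18 to P4 (4820). They were 1 for P4 to P7 (136), 5 for P7 to adult (1766), 7 for Neurod1 (1007), 6 for Neurod2 (334), 5 for Neurog1 (138) and 8 for Nhlh1 (688). Without large wells they were 2 for E11 to E13, E13 to E15, Neurod2 and Neurog1. Pou4f1-positive wells alone gave 0 for E13 to E15 and 2 for P7 to adult. A fit of the 4 plates of a step alone gave 0 for E13 to E15 and E18 to P4, 3 for P4 to P7 and 4 for P7 to adult. With no plate block, 0 members were called in every comparison of positive wells. With wells called after thinning, 1 was called for Bhlhe23 and 1 for Nhlh2. The median share of wells with any member was 77.4% after thinning and 88.7% where at least 2 UMIs of a member were asked for, against 95.7%.

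With the replicate number as a block, 0 members were called for E13 to E15 and 2 for P7 to adult, and no other count of members moved by over 1.5 times. Counts of called genes moved from 16 to 4 for E13 to E15, from 34 to 16 for E15 to E18 and from 0 to 6 for left against right. The labels do not say that a number marks a shared animal, litter or day. For single member calls, 105 recomputed values kept their direction but no longer passed, and 0 changed sign.

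Counts of called genes also moved. Leaving out a plate gave 28 to 482 genes for E11 to E13 (253 as reported), 1 to 81 for E13 to E15 (16), 4 to 2100 for E15 to E18 (34), 574 to 5695 for E18 to P4 (3421), 27 to 1074 for P7 to adult (625) and 18 to 39 for left against right (0). For positive wells it gave 107 to 304 for Bhlhe23 (235), 121 to 349 for Neurod1 (249), 1 to 212 for Neurod2 (21), 368 to 707 for Neurod4 (626), 15 to 36 for Neurog1 (31), 47 to 306 for Neurog2 (191), 163 to 271 for Nhlh1 (249), 1081 to 2092 for Nhlh2 (1814) and 3 to 202 for Neurog2-only wells (27). With no filter they were 1715, 1249, 1461, 4820, 136 and 1766 for the 6 steps in order. DESeq2 gave 932 genes for E11 to E13, 445 for E13 to E15, 665 for E15 to E18, 22 for P4 to P7 (1 as reported) and 1411 for P7 to adult. The 4 plates alone gave 0 for E13 to E15 and E15 to E18, 528 for E18 to P4 and 541 for P4 to P7. Comparisons of Neurod6-positive wells and of Neurog2-only with Neurod2-only wells were not run, since fewer than 3 plates had 10 wells of each kind, and the same limit left out thinned wells or wells with at least 2 UMIs for the rarest genes. The 1% rule for wells of other cell types was chosen after seeing the data.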

Other observations

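The deposited tables split UMIs into spliced and unspliced. In the kept wells of the developmental plates, 1.58% of the UMIs of Neurod1 were unspliced (278 of 17542), of Neurod6 1.42% (12 of 843), of Neurod4 0.801% (5 of 624), of Nhlh1 0.237% (4 of 1691) and of Neurod2 0.212% (6 of 2826). In those of the side plates the shares were 1.43% for Neurod1 (77 of 5371), 0.252% for Neurod6 (2 of 794) and 1.18% for Neurod4 (3 of 254). They were 0.402% for Nhlh1 (1 of 249) and 0.118% for Neurod2 (2 of 1690). The single-exon genes Neurog1 and Bhlhe23 had 0 in both sets. So did Neurog2 and Nhlh2 (25462 UMIs in the developmental plates), although both of these have an intron.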
